A study of Homo sapiens with 6 samples.

Results

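The genes described here are 36 genes of cholesterol and fatty acid synthesis and their SREBP regulators, listed by symbol and matched to Ensembl identifiers. They comprised 18 enzymes of sterol synthesis, 8 regulators or transporters of sterols and 10 enzymes that make or modify fatty acids. All 36 were found among the 67140 identifiers of the count table, and 35 of them passed the filter on low counts that left 19254 identifiers for testing. The excepted gene was DHCR7. Levels were measured by RNA sequencing of KYSE150, a long-established human line derived from an esophageal squamous cell carcinoma and grown in RPMI medium with fetal bovine serum. The comparison was between 3 samples carrying a control hairpin (shCtrl) and 3 samples carrying a hairpin against the lncRNA AC007128.1 (shAC007128.1). Per the study's methods, lentivirus delivered the hairpins and puromycin selected the stable lines, so both arms share the virus and the drug, and each arm rests on 1 hairpin. No label says that the 3 samples of an arm came from separate cultures, and p-values therefore measure only the spread between these samples. Since these were bulk samples, a change in RNA per cell and a change in the share of cells that express a gene cannot be told apart.

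Cells make cholesterol from acetyl-CoA through mevalonate, isoprenoid units, squalene and lanosterol, and they make fatty acids from the same acetyl-CoA through malonyl-CoA. Both routes are transcribed under SREBP proteins, which the genes SREBF1 and SREBF2 encode. These precursors sit in the endoplasmic reticulum bound to SCAP. When sterols are plentiful, the INSIG proteins hold SCAP there, and when sterols run low, SCAP escorts SREBP to the Golgi, where proteases release the active factor. INSIG1 is itself a target of SREBP, so its RNA is widely used as a readout of the pathway, while ABCA1, which exports cholesterol, is a classical target of the oxysterol receptors LXR.

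Most of the sterol synthesis enzymes were more abundant in the shAC007128.1 samples, while the genes that encode SREBP and SCAP were near or slightly under their control level. By edgeR's quasi-likelihood test, 20 of the 35 tested members rose and 6 fell at an adjusted p of at most 0.05. Over all genes tested, 21% were called higher and 19.8% lower under the same limit, 40.8% in either direction. The count of members that fell was 3 with a correction for GC content, and also 3 when replicate 1 of either arm or the second shCtrl sample was left out. Over all genes, those called lower numbered 3820 in the full fit and 3982 with the GC correction. They numbered 2864 and 2854 without shCtrl replicate 1 or 2, and 3648 without shAC007128.1 replicate 1. When a fold of at least 2 was also required, 11 members were higher, against 5.57% of all genes, and 0 were lower, against 10.1% of all genes. The median log2 fold change was 0.62 over the members tested and -0.02 over all genes tested. The values of the arms did not overlap for 29 members, of which 22 were higher and 7 lower in shAC007128.1, whereas 27% of all genes were higher and 28.2% lower without overlap, 55.2% in all. For 3 samples against 3, the 2-sided exact permutation test cannot go under p = 0.1, and each of the 29 members reached that value. Summed over the 36 members, the level was 3698 to 3881 CPM (counts scaled to the library size after TMM) in the shCtrl samples and 5746 to 5941 CPM in the shAC007128.1 samples.

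**Figure D1:**
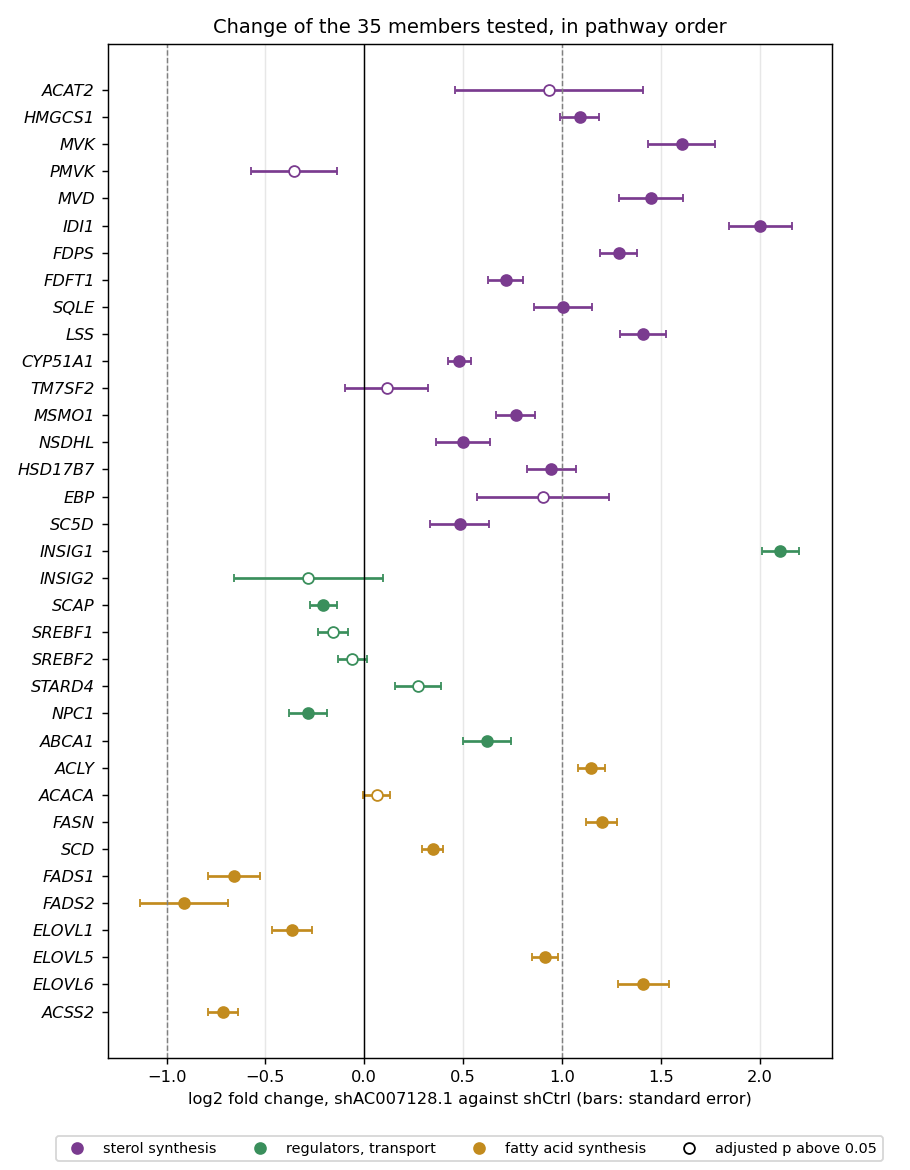
Log2 fold change of the 35 tested members (horizontal axis, shAC007128.1 against shCtrl) in pathway order, with bars for the standard error, dashed lines at a fold of 2 and open circles for an adjusted p above 0.05. Most sterol enzymes in purple lie to the right of 0, INSIG1 is farthest right at 2.11, and the fatty acid enzymes in gold lie on both sides.

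The groups of members differed in their counts, which stand beside the 21% of all genes called higher and the 19.8% called lower. Those of the 8 regulators and transporters lay near these shares. Of 17 tested sterol synthesis enzymes, 13 rose, 0 fell and 4 did not pass, with a median log2 fold change of 0.93. Of the 8 regulators and transporters, 2 rose, 2 fell and 4 did not pass, with a median of -0.11 that was 0.06 with the GC correction and 0.02 without replicate 3 of shAC007128.1. Both falls, of SCAP and NPC1, were lost in 5 of the 6 fits that left out 1 sample. Of the 10 fatty acid enzymes, 5 rose, 4 fell and 1 did not pass, with a median of 0.20, or 0.08 with a correction for transcript length. The summed level of the sterol enzymes was 778 to 825 CPM in shCtrl and 1554 to 1648 CPM in shAC007128.1. That of the fatty acid enzymes was 2223 to 2351 against 3449 to 3581 CPM, and that of the regulators 697 to 721 against 739 to 765 CPM. The regulators' sum includes INSIG1, whose mean went from 26.7 CPM in shCtrl to 115 CPM in shAC007128.1. Of the 8 regulators and transporters, 5 had a negative log2 fold change and 3 a positive one. Sample by sample, the members' median change from the shCtrl mean, on the log2(CPM + 1) scale, was 0.46, 0.54 and 0.51 in the shAC007128.1 samples and between -0.015 and 0.025 in the shCtrl samples. No difference between these groups was tested.

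Total counts were 65140326 to 78610457 in shCtrl and 55764405 to 60158244 in shAC007128.1. A level of 3 counts, taken by convention as the smallest detectable one, corresponds to 0.0373 to 0.0546 CPM, although low counts piled up at multiples of 4. The targeted lncRNA AC007128.1 (ENSG00000229970, chr7:8262264-8344516 on hg38) had 69, 33 and 53 counts in shCtrl and 18, 37 and 15 in shAC007128.1. Its log2 fold change was -0.77 (SE 0.51, adjusted p = 0.271), the arms overlapped at replicate 2, and its reduction was thus not resolved in these counts. The study itself reports, from qPCR, that the hairpin reduced this lncRNA. Replicate 3 of shAC007128.1 stood apart from its group, with a chi-square per degree of freedom of 110 and 86.7 against replicates 1 and 2, compared with 37.8 to 44.2 for the other pairs. Mitochondrial genes took 7.80% and 7.68% of the counts in replicates 1 and 2 of shAC007128.1, 9.72% in its replicate 3 and 9.69% to 10.2% in shCtrl. Identifiers with at least 1 count numbered 24623 to 24940 in shAC007128.1 and 26842 to 27494 in the more deeply sequenced shCtrl samples, and the part of either measure in the members' results was not tested. Of the squamous epithelium markers KRT5, KRT14, KRT6A, TP63 and KRT17, all 5 were present and 3 rose (KRT5, KRT14 and KRT6A). KRT17 (log2 fold change 0.45, adjusted p = 0.102) and TP63, with a change in the other direction (-0.27, adjusted p = 0.406), did not pass. The summed level of the 5 was 969 to 997 CPM in shCtrl and 1620 to 2152 CPM in shAC007128.1. The 5 fibroblast markers summed to 14.8 to 15.7 against 20.8 to 23.6 CPM, with COL1A1 and LUM higher (2 of 2 tested) and COL1A2, COL3A1 and DCN untested and near 0. The 4 leukocyte markers summed to 0.590 to 1.04 against 0.605 to 1.29 CPM, the 3 endothelium markers to 2.12 to 3.11 against 0.302 to 2.02 CPM, and the 3 hepatocyte markers to at most 0.0860 CPM in any sample. The part of the rise of KRT5, KRT14 and KRT6A in the members' results was not tested either.

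Promoter sequences of the members are shown as a description, and no link between a motif and a change was tested. RefSeq windows (build GRCh38.p14) of 250 bases before to 50 bases after each start were matched for 32 of the 36 members, in 43 windows, since 9 members have several. ACAT2, FASN, SQLE and FDFT1 had no entry. The 210 bases directly before the start of 7 members are given 5′ to 3′ on the gene's strand. These are SREBF2, the gene for the SREBP-2 precursor and the single member with a sterol regulatory element core, 5 of the 8 members that rose by at least 2-fold and carry NF-Y boxes, picked by hand, and ELOVL6, which rose by as much with none of the 3 marked motifs. Capitals mark the sterol regulatory element core, the NF-Y box and the E-box on either strand.

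SREBF2 (chr22:41832895-41833104, plus strand): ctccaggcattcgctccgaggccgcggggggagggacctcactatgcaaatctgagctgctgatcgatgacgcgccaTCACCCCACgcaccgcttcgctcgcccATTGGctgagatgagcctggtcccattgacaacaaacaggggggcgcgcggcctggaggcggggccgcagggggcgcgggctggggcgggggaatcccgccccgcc

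INSIG1 (chr7:155297668-155297877, plus strand): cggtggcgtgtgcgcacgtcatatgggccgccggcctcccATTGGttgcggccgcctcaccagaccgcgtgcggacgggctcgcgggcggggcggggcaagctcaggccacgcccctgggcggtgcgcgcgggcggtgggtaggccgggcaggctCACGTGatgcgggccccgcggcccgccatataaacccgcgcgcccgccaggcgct

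HMGCS1 (chr5:43313413-43313622, minus strand): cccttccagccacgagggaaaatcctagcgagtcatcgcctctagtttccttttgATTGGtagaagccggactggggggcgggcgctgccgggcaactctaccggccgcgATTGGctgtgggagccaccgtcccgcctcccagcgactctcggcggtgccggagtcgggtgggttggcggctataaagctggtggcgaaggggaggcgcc

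MVK (chr12:109573584-109573793, plus strand): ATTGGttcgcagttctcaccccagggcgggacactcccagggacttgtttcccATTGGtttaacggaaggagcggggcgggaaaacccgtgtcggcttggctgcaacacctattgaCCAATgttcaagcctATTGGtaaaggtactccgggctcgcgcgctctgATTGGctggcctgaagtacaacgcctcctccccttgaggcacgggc

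MVD (chr16:88663092-88663301, minus strand): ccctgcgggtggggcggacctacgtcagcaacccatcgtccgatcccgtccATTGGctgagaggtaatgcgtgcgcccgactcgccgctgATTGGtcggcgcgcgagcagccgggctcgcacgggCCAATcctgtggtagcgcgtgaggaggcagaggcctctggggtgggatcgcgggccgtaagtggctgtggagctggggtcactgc

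FDPS (chr1:155308656-155308865, plus strand): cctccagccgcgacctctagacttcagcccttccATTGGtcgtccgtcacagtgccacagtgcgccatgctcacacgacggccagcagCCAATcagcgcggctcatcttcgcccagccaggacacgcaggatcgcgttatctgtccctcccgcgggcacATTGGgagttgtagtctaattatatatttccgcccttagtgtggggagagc

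ELOVL6 (chr4:110198616-110198825, minus strand): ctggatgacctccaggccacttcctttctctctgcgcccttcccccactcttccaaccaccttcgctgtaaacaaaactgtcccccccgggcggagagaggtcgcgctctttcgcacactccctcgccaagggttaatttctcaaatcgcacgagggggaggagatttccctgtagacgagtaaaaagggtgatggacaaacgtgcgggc

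The NF-Y box CCAAT, bound by a factor that commonly acts beside SREBP, was found on either strand in 23 of 32 members (71.9%), compared with 42.1% of 11959 other tested genes and 39.7% of 27305 genes with a window. It stood in 14 of the 17 members that rose and have a window and in 9 of the other 15. MVK and NSDHL each had 5 such boxes in 1 window and MSMO1 had 4. Boxes on opposite strands that overlap each other were counted separately. The sterol regulatory element core TCACNCCAC was found in SREBF2 alone (3.12% of members, 1.38% of the other tested genes), at chr22:41832972-41832980, 133 bases before the start. The E-box CACGTG was found in ABCA1, ELOVL5, INSIG1, LSS, SC5D and SCAP (18.8%, against 11.9% of the other tested genes), and in INSIG1 it began 55 bases before the start. The GC box GGGCGG was found in 30 members (93.8%, against 73.2%). A match is a run of letters and not a measured binding site, and no match says only that these letters are not in that window.

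**Figure D2:**
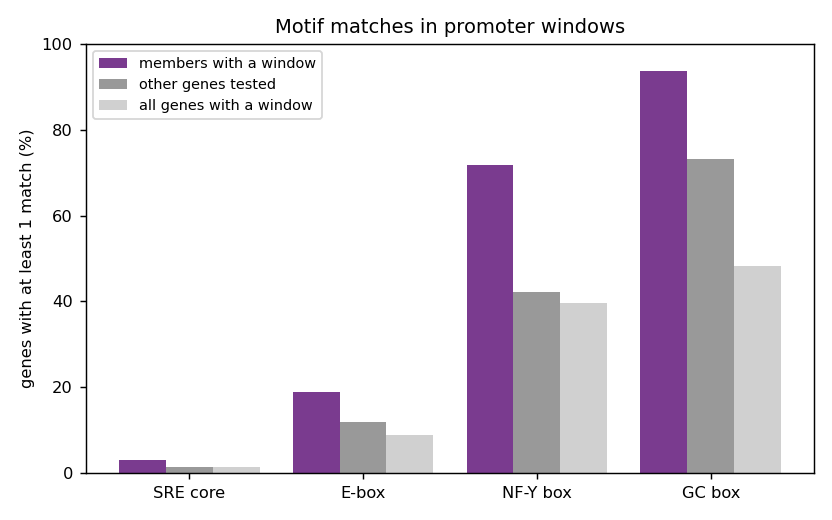
Percentage of genes with at least 1 match to each of 4 motifs (vertical axis, starting at 0) in RefSeq promoter windows, for the 32 members with a window, the other tested genes and all genes with a window. The NF-Y box bars stand at 71.9%, 42.1% and 39.7%, and the sterol regulatory element core is rare in each group.

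Mevalonate is made and converted to farnesyl diphosphate by a short chain of enzymes, and most of those measured here rose. HMGCS1, which condenses acetyl-CoA with acetoacetyl-CoA (ENSG00000112972, chr5:43287470-43313512), was at 84.6, 77.9 and 80.0 CPM in shCtrl and at 155, 165 and 195 CPM in shAC007128.1. Every shAC007128.1 sample lay above every shCtrl sample, and replicate 3 was the highest. The log2 fold change was 1.09 (SE 0.10, adjusted p = 0.000224), and 0.98 without replicate 3 of shAC007128.1. MVK, mevalonate kinase (ENSG00000110921, chr12:109573255-109598125), went from 16.1, 16.3 and 17.3 CPM to 50.1, 62.4 and 38.8 CPM. Here replicate 3 was the lowest of its arm, still well above every control value, and the log2 fold change was 1.61 (SE 0.17, adjusted p = 0.000411). MVK shares 225 exonic bases with MMAB on the opposite strand, a gene chosen for mention after its values were seen, which fell (log2 fold change -0.39, SE 0.11, adjusted p = 0.0243). 

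MVD, the decarboxylase that makes isopentenyl diphosphate (ENSG00000167508, chr16:88651935-88663161), was at 32.5, 30.7 and 32.3 CPM in shCtrl and at 103, 92.0 and 65.8 CPM in shAC007128.1. The arms were well apart although replicate 3 was again the lowest of its arm, and the log2 fold change was 1.45 (SE 0.16, adjusted p = 0.000496). IDI1, the isomerase that follows it (ENSG00000067064, chr10:1039152-1049119), went from 47.9, 41.6 and 38.2 CPM to 194, 134 and 184 CPM. This was the largest change among the enzymes, at 4.01-fold (SE 0.16 on the log2 scale, adjusted p = 0.000121) and replicate 2 as the lowest shAC007128.1 sample. FDPS, farnesyl diphosphate synthase (ENSG00000160752, chr1:155308748-155320666), went from 71.2, 68.3 and 71.5 CPM to 188, 175 and 152 CPM. Its arms did not overlap and its log2 fold change was 1.29 (SE 0.09, adjusted p = 8.39e-05). FDPS shares 693 exonic bases with the antisense gene RUSC1-AS1, which had 260 to 635 counts in any sample against 4853 to 10560 for FDPS, and its pseudogenes had at most 46 counts in any sample.

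PMVK, the kinase that stands between MVK and MVD, is shown in full by a choice made after its values were seen. It did not pass the test and was at 7.98, 7.50 and 8.40 CPM in shCtrl against 7.74, 6.52 and 4.39 CPM in shAC007128.1 (log2 fold change -0.36, SE 0.22, adjusted p = 0.234). The arms overlapped, and replicate 3 was the lowest sample. ACAT2, a cytosolic thiolase, stood close to the limit of detection with 10 to 33 counts per sample, and its log2 fold change of 0.93 (SE 0.48) did not pass at an adjusted p of 0.161. It shares 454 exonic bases with TCP1 on the opposite strand, a gene with 13692 to 20623 counts per sample.

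The enzymes that make squalene and carry it on toward cholesterol also moved largely upward. FDFT1, squalene synthase (ENSG00000079459), was at 85.5, 71.6 and 74.8 CPM in shCtrl and at 127, 123 and 130 CPM in shAC007128.1. The shAC007128.1 samples lay within a narrow range above all controls, and the log2 fold change was 0.71 (SE 0.09, adjusted p = 0.000721). LSS, which closes the ring to lanosterol (ENSG00000160285, chr21:46188141-46228824), went from 47.0, 45.4 and 48.9 CPM to 143, 126 and 106 CPM. The separation was complete, with a log2 fold change of 1.41 (SE 0.12, adjusted p = 0.000144). CYP51A1, which demethylates lanosterol (ENSG00000001630, chr7:92084987-92134803), went from 165, 164 and 163 CPM to 227, 226 and 235 CPM. Both arms were tight, so that a log2 fold change of only 0.48 (SE 0.06) had an adjusted p of 0.000743. CYP51A1 shares 68.2% of its exonic bases with a gene model on the same strand, ENSG00000285772, which had 7 to 30 counts per sample.

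Among the remaining sterol enzymes, SQLE, the squalene epoxidase and a rate-limiting step, had a log2 fold change of 1.01 (SE 0.15, adjusted p = 0.00163), and 0.84 without replicate 3 of shCtrl, in which it was lowest at 45.7 CPM. MSMO1, a methyl sterol oxidase, and HSD17B7, a sterol ketoreductase, rose by 0.77 and 0.95 on the log2 scale (adjusted p = 0.000866 and 0.000931). HSD17B7 had 884 to 1546 counts per sample and its pseudogene HSD17B7P2 had 62 to 119. NSDHL, which acts in the same demethylation complex, and SC5D, the desaturase near the end of the route, rose by 0.50 and 0.48 (adjusted p = 0.0232 and 0.0357). Each of these calls was lost in 5 of the 6 fits that left out 1 sample, with adjusted p up to 0.0790 for NSDHL and 0.122 for SC5D. SC5D also lost the call with the GC correction (log2 fold change 0.26, adjusted p = 0.0764), the length correction (0.36, adjusted p = 0.0673), library size only and no filter, and NSDHL with no filter (adjusted p = 0.0521).

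EBP, the sterol isomerase, did not pass the test in the full set and was likewise chosen to be shown in full after its values were seen. It was at 17.8, 31.8 and 18.6 CPM in shCtrl and at 55.6, 47.2 and 24.9 CPM in shAC007128.1, with a log2 fold change of 0.90 (SE 0.33, adjusted p = 0.0667). Replicate 2 of shCtrl was high and replicate 3 of shAC007128.1 low, so the arms overlapped. Without the former the log2 fold change was 1.22 (adjusted p = 0.0355), without the latter 1.17 (adjusted p = 0.0171), and DESeq2 gave an adjusted p of 0.00571. EBP gained the call in only 2 of the 6 fits that left out 1 sample and in 4 of 12 other ways of processing. Its log2 fold change was 0.66 without replicate 1 of shAC007128.1. The adjusted p was up to 0.190 with 1 sample left out and 0.123 under the other ways. EBP shares 36.4% of its exonic bases with ENSG00000286268 on the same strand, which had 56, 102 and 85 counts in shCtrl and 8, 6 and 0 in shAC007128.1. TM7SF2, a sterol reductase, was at 13.6 to 17.0 CPM in shCtrl and 11.5 to 20.4 CPM in shAC007128.1 (adjusted p = 0.706). DHCR7, the reductase that produces cholesterol itself, had 0, 4 and 0 counts in shCtrl and 0 in each shAC007128.1 sample, and was not tested.

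**Figure D3:**
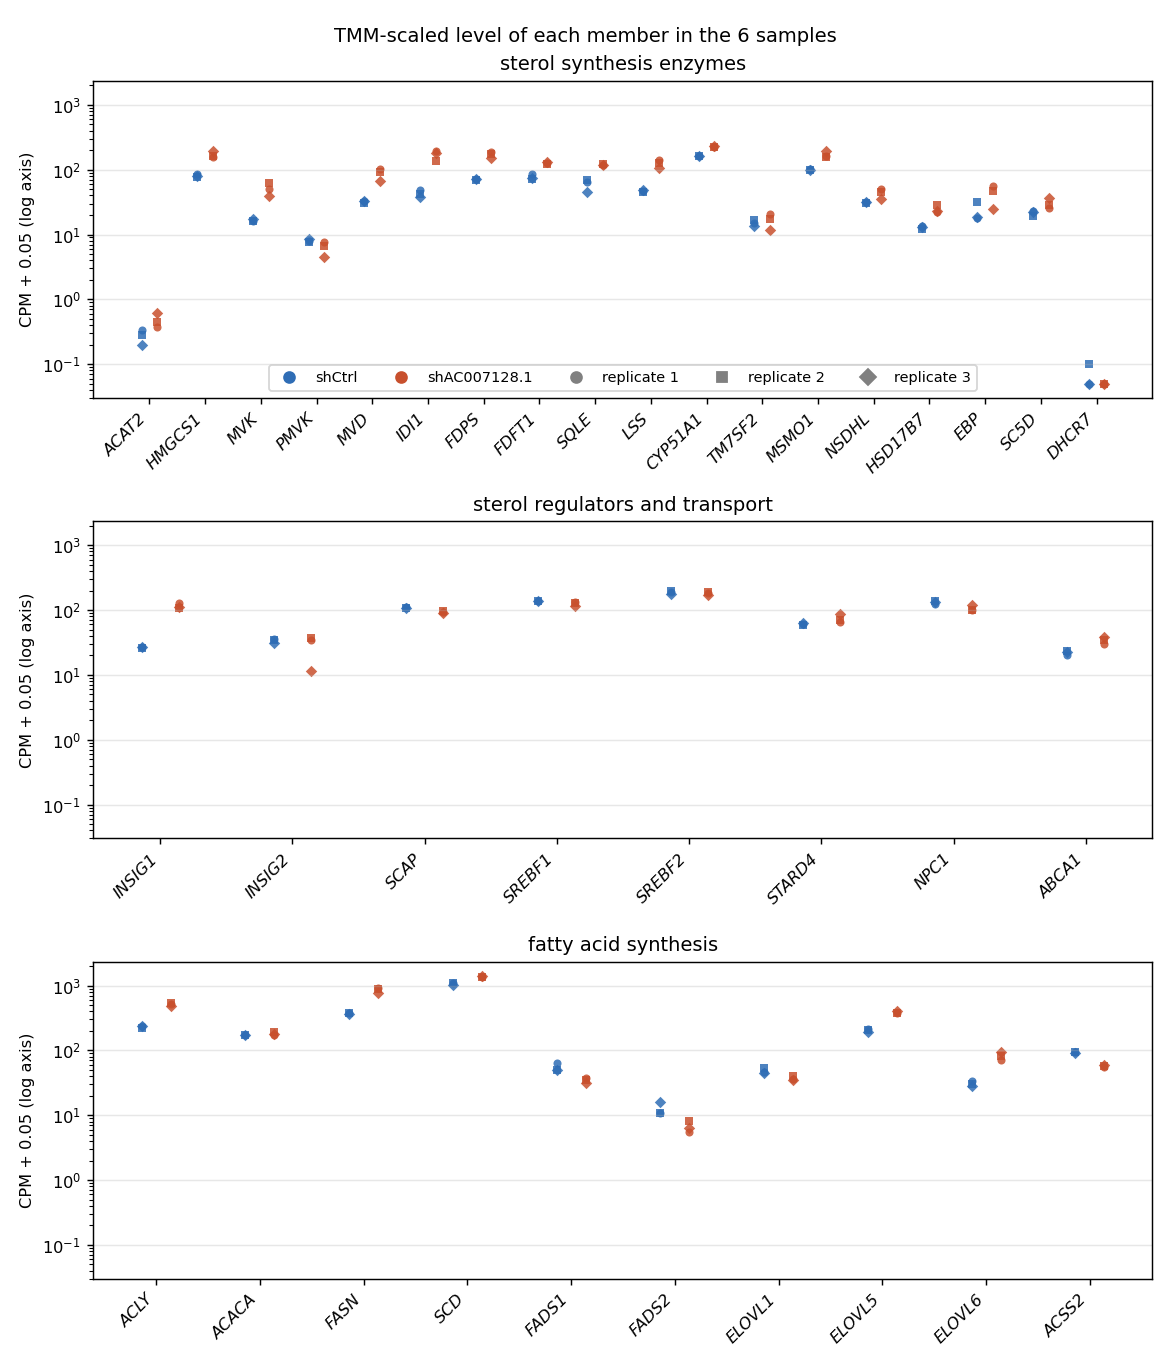
TMM-scaled level of each member in each of the 6 samples (vertical log axis, CPM plus 0.05), in blue for shCtrl and red for shAC007128.1, with the marker shape giving the replicate number. The arms of INSIG1, IDI1, FDPS, LSS, ACLY and FASN are clearly apart, whereas INSIG2 falls far below the other samples in replicate 3 of shAC007128.1 alone.

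Among the regulators, INSIG1, the sterol-responsive anchor of SCAP (ENSG00000186480, chr7:155297776-155310235), had the smallest p of all members. It was at 26.9, 26.1 and 27.2 CPM in shCtrl and at 128, 107 and 110 CPM in shAC007128.1. The spread within each arm was small beside the gap, and the fold was 4.30 (log2 fold change 2.11, SE 0.10, adjusted p = 2.24e-05). Leaving out any 1 sample kept the log2 fold change between 2.02 and 2.16. Its paralog INSIG2, which is not induced by SREBP (ENSG00000125629, chr2:118088452-118110997), was at 35.2, 34.1 and 31.0 CPM in shCtrl and at 34.0, 36.8 and 11.6 CPM in shAC007128.1. The low value belonged to replicate 3 alone, and the log2 fold change of -0.28 (SE 0.38, adjusted p = 0.585) became 0.07 (adjusted p = 0.525) without that sample. In shCtrl INSIG2 was the more abundant of the pair per exonic length, at 8.47 against 7.32 CPM per kb, and in shAC007128.1 INSIG1 was, at 31.5 against 6.96 CPM per kb.

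The RNAs that encode SREBP and its escort moved little. SREBF1, which encodes SREBP-1 (ENSG00000072310, chr17:17810399-17837002), was at 138, 140 and 138 CPM in shCtrl and at 132, 127 and 113 CPM in shAC007128.1. All 3 shAC007128.1 samples were lower, but the log2 fold change of -0.16 (SE 0.08) did not pass at an adjusted p of 0.148, and it was 0.10 after a correction for GC content. SREBF1 shares 556 exonic bases with RAI1 on the opposite strand, which had 8549 to 12473 counts in shCtrl and 4474 to 7758 in shAC007128.1. Whether reads of RAI1 entered the counts of SREBF1 was not tested. SREBF2, which encodes SREBP-2 (ENSG00000198911, chr22:41833105-41907306), was at 189, 193 and 177 CPM in shCtrl and at 181, 187 and 168 CPM in shAC007128.1. The arms overlapped, and the log2 fold change was -0.06 (SE 0.07, adjusted p = 0.544), or 0.09 with the GC correction. SCAP (ENSG00000114650, chr3:47413681-47477126) went from 113, 109 and 106 CPM to 94.3, 98.2 and 91.5 CPM. The shAC007128.1 samples were all lower and the log2 fold change was -0.21 (SE 0.07, adjusted p = 0.0493), a call that did not hold in most fits without 1 sample and a value that turned to 0.03 (adjusted p = 0.791) with the GC correction.

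The transporters were mixed. ABCA1, the cholesterol exporter (ENSG00000165029, chr9:104781006-104928155), went from 20.1, 23.6 and 22.6 CPM to 29.7, 34.3 and 38.0 CPM. It rose without overlap, with a log2 fold change of 0.62 (SE 0.12, adjusted p = 0.00594). NPC1, which moves cholesterol out of lysosomes, was at 122 to 136 CPM in shCtrl and 100.03 to 120 CPM in shAC007128.1 and fell by 0.28 on the log2 scale (SE 0.10, adjusted p = 0.0487). Its adjusted p was up to 0.161 in the fits without 1 sample and 0.0849 with the GC correction. NPC1 shares 619 exonic bases with RMC1 on the opposite strand, which had 1669 to 3012 counts per sample. STARD4, a cytosolic sterol carrier, was at 58.7 to 63.3 CPM in shCtrl and 65.6 to 86.4 CPM in shAC007128.1 without overlap, and did not pass (log2 fold change 0.27, SE 0.12, adjusted p = 0.102). Its highest value was in replicate 3 of shAC007128.1, and its log2 fold change was 0.02 (adjusted p = 0.814) with the GC correction.

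In fatty acid synthesis, the genes that supply and use acetyl-CoA moved in different directions. ACLY, which splits citrate to cytosolic acetyl-CoA (ENSG00000131473, chr17:41866917-41930542), went from 235, 224 and 235 CPM to 521, 538 and 481 CPM. The arms were far apart, with a log2 fold change of 1.15 (SE 0.07, adjusted p = 4.15e-05). ACSS2, which makes acetyl-CoA from acetate (ENSG00000131069, chr20:34872146-34927962), went from 95.4, 93.2 and 92.4 CPM to 54.5, 56.8 and 60.0 CPM. It fell in all 3 samples, with a log2 fold change of -0.71 (SE 0.07, adjusted p = 0.000365). ACACA, the carboxylase that makes malonyl-CoA, was at 170 to 174 CPM in shCtrl and 171 to 191 CPM in shAC007128.1, overlapped and did not pass (log2 fold change 0.06, SE 0.07, adjusted p = 0.505). FASN, fatty acid synthase (ENSG00000169710, chr17:82078338-82098294), went from 380, 371 and 369 CPM to 908, 896 and 769 CPM. The lowest shAC007128.1 sample was still above every control by a wide gap, and the log2 fold change was 1.20 (SE 0.08, adjusted p = 5.39e-05).

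The elongases and desaturases likewise split. ELOVL6, which extends palmitate to stearate (ENSG00000170522, chr4:110045846-110199199), went from 34.3, 30.5 and 28.1 CPM to 71.4, 81.5 and 94.4 CPM, with a log2 fold change of 1.41 (SE 0.13, adjusted p = 0.00021). ELOVL5, which extends polyunsaturated chains (ENSG00000012660, chr6:53267398-53349179), went from 213, 205 and 194 CPM to 373, 383 and 400 CPM, with a log2 fold change of 0.92 (SE 0.07, adjusted p = 8.28e-05). In both genes all shAC007128.1 samples were above all controls. SCD, the stearoyl-CoA desaturase, rose by less, from 1024 to 1102 CPM in shCtrl to 1350 to 1395 CPM in shAC007128.1 (log2 fold change 0.35, SE 0.05, adjusted p = 0.00196). By contrast FADS1 and FADS2, neighbouring genes for the delta-5 and delta-6 desaturases of polyunsaturated fatty acids, fell by 0.66 (SE 0.13, adjusted p = 0.00646) and by 0.91 (SE 0.22, adjusted p = 0.0145) on the log2 scale. FADS1 was at 49.3 to 64.0 CPM in shCtrl and 31.0 to 37.3 CPM in shAC007128.1, FADS2 at 10.7 to 16.0 and 5.50 to 8.12 CPM, and the genes share 490 exonic bases on opposite strands. ELOVL1, an elongase of saturated very long chains, fell by 0.37 (SE 0.10, adjusted p = 0.0229), a call lost when replicate 1 of either arm or the second shCtrl sample was left out (adjusted p up to 0.0904). The call was also lost in 2 of 12 other ways of processing (adjusted p up to 0.102). With a correction for transcript length, the log2 fold change of ELOVL1 was -0.22.

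Per kb of exon, SCD was the most abundant member in both arms, at 205 CPM per kb in shCtrl and 260 CPM per kb in shAC007128.1. ELOVL5, ACLY and FASN followed in the same order in both arms, at 53.5, 44.4 and 40.1 CPM per kb in shCtrl and 101, 98.5 and 92.1 CPM per kb in shAC007128.1, where they lay close together beside their SDs of 3.65, 5.58 and 8.26 CPM per kb. In shCtrl, CYP51A1 was close behind FASN at 39.4 CPM per kb. The length used was that of all annotated exons of a gene, and places may differ with the transcripts used, which was not tested. INSIG1 went from the 24th place to the 9th and IDI1 from the 21st to the 8th, at 9.91 and 39.7 CPM per kb. ACSS2 moved the other way, from 17.9 CPM per kb in the 10th place to 10.9 in the 25th. FADS2 at 1.18 and 0.630 CPM per kb, ACAT2 at 0.0847 and 0.163 CPM per kb and DHCR7 were the last in both arms.

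**Figure D4:**
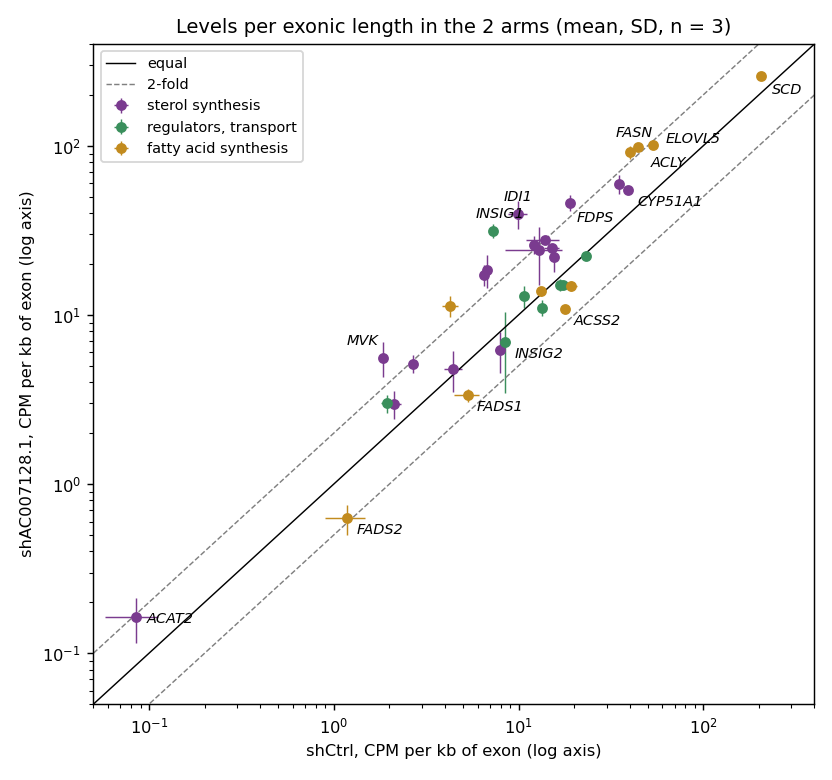
Mean level of each member per kb of exon in shCtrl (horizontal log axis) and shAC007128.1 (vertical log axis), with bars for the SD of 3 samples, a solid line for equal levels and dashed lines for a fold of 2. INSIG1, IDI1, MVK and FASN lie above the upper dashed line, and ACSS2, FADS1 and FADS2 lie below the solid line.

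Because replicate 3 of shAC007128.1 stood apart, each member was compared with the mean of replicates 1 and 2. The median absolute log2 difference was 0.209 over the members and 0.198 over the 19254 tested genes, with 20 members lower and 15 higher in replicate 3. The lowest were INSIG2 (-1.53), EBP (-1.02), TM7SF2 (-0.66), PMVK (-0.59), MVD (-0.56) and MVK (-0.52), and the highest were SC5D (0.42) and STARD4 (0.35). Across the 35 members this difference ran against the GC content of the longest transcript (Spearman's rho -0.666, across genes that share the same libraries), and across 19156 tested genes with a transcript sequence the coefficient was -0.499. The log2 fold change itself had a coefficient of -0.14 with GC content across the members and -0.19 across the 19156 genes. Without replicate 3, 20 members were called higher and 6 lower, 10 of them higher by at least 2-fold, as SQLE (0.997) and HMGCS1 (0.98) dropped under that fold and EBP (1.17) passed both limits. The medians were then 0.63 for all members, 0.98 for sterol synthesis, 0.02 for regulators and 0.19 for fatty acid synthesis.

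**Figure D5:**
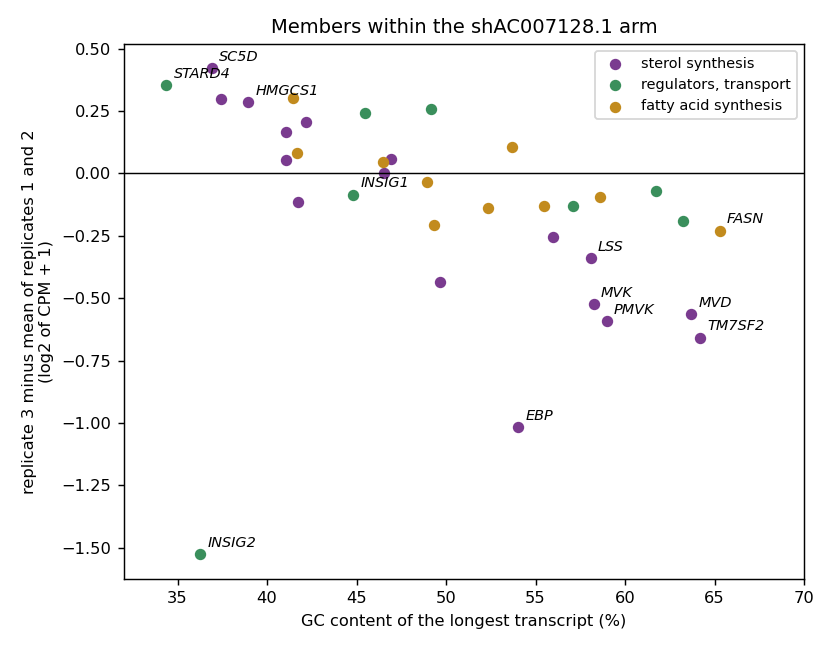
Difference of each member between replicate 3 and the mean of replicates 1 and 2 of shAC007128.1 (vertical axis, log2 of CPM plus 1) against the GC content of its longest transcript (horizontal axis, percent). Members with a high GC content tend to lie under 0, whereas INSIG2, at -1.53, has one of the lowest GC contents.

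The same pathways were also read in genes outside the members, whose counts stand beside the 21% of all genes called higher and the 19.8% called lower. Of 23 other sterol genes, 7 rose and 8 fell (median log2 fold change 0.13). The 4 with the smallest p were SOAT1, which esterifies cholesterol for storage (log2 fold change 1.45, SE 0.10, adjusted p = 8.3e-05), SCARB1, a lipoprotein receptor (-1.001, SE 0.09, adjusted p = 0.000158), ERG28, a scaffold of the demethylation complex (0.94, SE 0.09, adjusted p = 0.000293), and NCEH1, which hydrolyses cholesteryl esters (0.78, SE 0.08, adjusted p = 0.000314). SOAT1 went from 43.0 to 50.5 CPM in shCtrl to 120 to 143 CPM in shAC007128.1, a rise of the same order as that of LSS. MBTPS1 and MBTPS2 encode the proteases that release SREBP. MBTPS1 did not pass (log2 fold change 0.13, adjusted p = 0.262) and MBTPS2 fell by 0.62 on the log2 scale (adjusted p = 0.00226), and both were named after their values were seen.

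Of the 23 tested among 29 other fatty acid genes, 6 rose and 1 fell (median 0.22). FADS3, a relative of FADS1 and FADS2 in the same gene cluster, fell from 267 to 270 CPM in shCtrl to 82.0 to 103 CPM in shAC007128.1 (log2 fold change -1.52, SE 0.09, adjusted p = 5.04e-05). FABP5, a fatty acid binding protein, HACD3, a dehydratase of the elongation cycle, and GPAM, which starts glycerolipid synthesis, rose by 0.91, 0.75 and 0.93 on the log2 scale (adjusted p = 0.000426, 0.000585 and 0.000991). Of 6 LXR receptors and targets, 1 rose and 1 fell (median 0.02). LPCAT3, a lysophospholipid acyltransferase, rose by 0.52 (SE 0.09, adjusted p = 0.00429), and NR1H3, which encodes LXR-alpha, fell by 0.75 (SE 0.12, adjusted p = 0.00269). SMPDL3A did not pass (log2 fold change 0.11, adjusted p = 0.641), nor did ABCG1, a cholesterol exporter related to ABCA1, which was at 0.186 to 0.604 CPM in shCtrl and at most 0.146 CPM in shAC007128.1 (adjusted p = 0.0676).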

How the data were processed

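Per the study's methods, poly-A RNA of KYSE150 cells was made into paired-end TruSeq libraries. Reads were cleaned by the authors and aligned to hg38 using TopHat v2.0.9, with FPKM values from Cufflinks v2.1.1, whereas the submitters' processing notes name TopHat2 2.0.6. What the authors deposited is a matrix of estimated counts, 1 row per Ensembl identifier, in whole numbers and not normalized. The counting program, the annotation release and the use of strand are not given in the sources used here. Without strand, reads of a gene and of an overlapping antisense gene cannot be told apart. Low counts piled up at multiples of 4.

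Low counts were removed with filterByExpr (47886 identifiers). TMM factors, glmQLFit and glmQLFTest of edgeR 4.0.16 in R 4.3.3 gave 2-sided p-values, adjusted by Benjamini-Hochberg over 19254 genes, with both arms in 1 fit and no covariate. The study's limits, a false discovery rate of at most 0.05 and a fold of at least 2, were used, and calls on the rate alone were counted too. The SE is the log2 fold change over the root of the F statistic. Symbols, positions and exonic lengths came from GENCODE v44 (60357 of 67140 identifiers, 89.9%), and promoter windows from RefSeq. The steps were tested on simulated data. Intervals of counts and floors cover counting error only. Column names were matched to sample titles, with 0 columns left over. The arms rest on titles and descriptions, since the treatment field of the labels names shAC007128.1 for all samples. The processing notes list mm10 beside GRCh38.

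The members and gene lists were chosen with earlier results of these data known, so no list has a p-value. Per-sample values are given for SREBF1, SREBF2, SCAP, INSIG1, INSIG2, ABCA1 and the 14 members with the smallest p, and for each of the 3 lists outside the members the 4 genes with the smallest p are named. Genes given in such detail outside these rules are said to be so; DHCR7 is given by its counts since it was not tested. Some genes of the pathways are not reported here. Replicate numbers were checked for pairing: the deviations of samples with the same number correlated at 0.0306, -0.0254 and -0.0299, so the numbers were not used to pair samples. Alternatives were DESeq2 1.42.0, limma-voom (limma 3.58.1), other scaling, filters, depth and count divisions, a replicate block and each sample left out in turn. Corrections for GC content and transcript length were added after seeing the data.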

Additional observations from a re-analysis of the deposited data

How the results depend on the processing

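Of 629 single-member values under 18 alternatives, 578 kept their direction and their side of the limit, 38 lost the call, 6 gained it and 7 changed sign, and 24 of the 35 members kept both throughout. Members called higher numbered 18 to 21 (20 as reported), and those higher by at least 2-fold 10 to 13. Members called lower were 6, with 3 under the GC content correction and 3 to 6 with 1 sample left out (3 when replicate 1 of either arm or the second shCtrl sample was dropped). All genes called lower were 3820, with 3982 under the GC content correction and 2854 to 4152 with 1 sample left out. Lower by at least 2-fold were 0 to 1 with 1 sample left out. The replicate block, whose numbers do not pair samples, gave 21 higher and 4 lower members, since EBP was gained (adjusted p = 0.048) and SCAP (0.107) and NPC1 (0.0622) were lost. Over all genes it called 3524 higher and 3256 lower. The member median of 0.62 was 0.53 with DESeq2, 0.55 with library size only, 0.52 unfiltered, 0.59 where all samples had to reach 10 counts, 0.54 when counts were divided by 4, 0.56 with the GC correction and 0.56 to 0.66 with 1 sample left out. The sterol median was 0.78 to 1.01 with 1 sample left out. The regulator median was -0.18 with library size only, 0.06 with the GC correction and -0.14 to 0.0236 with 1 sample left out. The fatty acid median was 0.13 with library size only, 0.16 unfiltered and 0.0811 with the length correction. Sign changed for TM7SF2 (-0.0774 without shAC007128.1 replicate 1, -0.0774 to 0.303 with 1 sample left out), INSIG2 (0.0734 without shAC007128.1 replicate 3, -0.55 to 0.0734 with 1 sample left out), SCAP (0.031), SREBF1 (0.0976) and SREBF2 (0.0934) with the GC correction, and ACACA (-0.0103 with library size only, -0.12 with the length correction). The median of all genes was -0.15 with no filter. The causes were not tested. With 10 to 33 counts for ACAT2 and at most 4 for DHCR7, little can be said of either. Why their counts were so low was not tested.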
